A study of Drosophila melanogaster with 62 samples.

Results

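The genes described here are the small nucleolar, small Cajal body and spliceosomal RNA genes of the fly, taken as every row whose FlyBase symbol starts with snoRNA:, scaRNA: or snRNA: and whose counts, summed over all libraries of a table, reached 10. The rule gave 266 of the 17753 genes counted, from 289 rows with such a symbol, of which 18 held no count in any library. In total RNA 262 members reached the minimum and in nuclear RNA 258. By name, 110 members were placed in box H/ACA (pseudouridylation), 71 in box C/D (methylation), 40 were other snoRNAs and 14 were scaRNAs. Box H/ACA includes members named Or-aca, and box C/D includes Or-CD and U3 genes, whose names give no modified position. H/ACA guide and C/D guide below therefore name the class, not a known target. The snRNA genes comprised 24 of the major spliceosome (5 for U1, 6 for U2, 3 for U4, 7 for U5 and 3 for U6), 4 of the minor spliceosome, U7, LU and 7SK.

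Box C/D snoRNAs direct 2'-O-methylation of ribosomal RNA and box H/ACA snoRNAs direct its pseudouridylation, each by pairing with the target, and scaRNAs do the same for snRNAs in Cajal bodies. The snRNAs form the core of the spliceosome, U7 serves the 3' end processing of histone mRNA, and 7SK holds the elongation factor P-TEFb in an inactive particle with Hexim and Larp7. Most fly snoRNAs are cut out of introns of a host gene, whereas most snRNAs and 7SK are transcribed from promoters of their own. In the fly, embryos at stage 2 live on RNA laid down by the mother, and stage 5 is the blastoderm in which the zygotic genome is widely active.

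The study measured RNA in Drosophila melanogaster embryos depleted of a histone acetyltransferase (Nejire, the fly CBP; Gcn5; Enok) or of a histone deacetylase (HDAC1, HDAC3, HDAC6). Total RNA came from 20 hand-sorted embryos per library and nuclear RNA from the nuclei of 300 embryos. The labels call the samples biological replicates without naming parents, so p-values measure the spread between embryo collections of 1 cross. Libraries were made by tagmentation, and the sources used here do not give how the RNA was selected.

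In the main set, controls (cross T180xN174), NejireKD (NI715xN174), Gcn5KD (T400xN174), HDAC1KD (T341xN174) and HDAC3KD (T103xN174) were taken at stage 2 and stage 5, with 3 libraries per group except Gcn5KD at stage 5, which had 2. An earlier set, labelled batch1, held controls of the same cross (3 libraries at stage 2, 4 at stage 5), EnokKD (T337xN174) and HDAC6KD (T344xN174), the last 2 with 2 libraries per stage. All these embryos share the parent N174 and differ in the other parent, so the line and the knockdown cannot be told apart. At stage 5 only, 3 libraries each came from NejireKD embryos with a wild-type (T6xN546) or a catalytic dead (T6xN547) Nejire rescue, and from Gcn5 embryos with a wild-type (400x540) or a catalytic dead (400x541) Gcn5 rescue. Nuclear RNA was taken at stage 5 from 3 control and 3 NejireKD libraries whose cross is not named, the control being described as WT. The sets were made on different dates, and the rescues have no plain control of their own date. Of the batch1 controls, 3 libraries (stage 2 replicate 3, stage 5 replicates 2 and 3) carry CtrlAc-KD in their description. The main fit used all batch1 controls at stage 5, and an alternative left out replicate 4, which was taken as not named for Enok and HDAC6.

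The 56 total RNA libraries held between 2450013 and 40368054 counts, and the 6 nuclear ones between 14773164 and 20669647 counts. Zygotic markers (sna, ftz, Kr, kni and sog) summed to at most 1.04 CPM (counts scaled to a common library size) at stage 2 and to between 805 and 976 in the main controls at stage 5, and both HDAC6KD libraries at stage 5 lay between 958 and 1120, although one of them (replicate 2) has a tissue field that says stage 2. Each targeted gene except HDAC3 was lower in every knockdown library than in every control; HDAC3 was at 0 in every library, so its knockdown could not be checked. In nuclear RNA the level of the spike-in, in CPM of fly counts, was 98.5, 100.0 and 134 in controls but 282, 284 and 69.5 in NejireKD, so NejireKD replicate 3 stood apart from the other 2. In these bulk libraries fewer cells of a type and less RNA per cell cannot be told apart.

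A few long RNAs held nearly all the counts. The 7SK gene 7SKa (chr3R:7474553-7474996 of dm6, minus strand, 444 bases) took 68.6% of all member counts, and between 39.8% and 85.5% in single total RNA libraries. The 12 members over 200 bases held 90.3% of the counts with a median of 69133 per gene, whereas the 84 members of at most 100 bases held 0.492% with a median of 108. Per length, the median level in stage 5 controls rose with size, from 1.48 CPM per kilobase up to 100 bases through 7.15 and 24.1 to 867 CPM per kilobase over 200 bases. Of 266 members, 66 were counted in every total RNA library. By place, 182 members lay in introns of protein-coding genes and 46 in introns of noncoding genes. For these, a count by gene does not separate the small RNA from unspliced transcript of the host.

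In stage 5 controls 7SKa stood highest per length at 12600 CPM per kilobase. The minor spliceosome snRNA U11, which recognises the 5' splice site of minor introns, had 2110 CPM per kilobase, and U12, which pairs with their branch point, had 1350. The H/ACA snoRNAs Psi28S-291 and Psi28S-2566, named for the 28S rRNA position they modify, had 1710 and 1300 CPM per kilobase, and U3:9B, a gene for the C/D snoRNA that acts in pre-rRNA processing, had 1270. The best-counted major snRNA genes lay below these. U2:34ABa had 522 CPM per kilobase, U1:95Cc 384, U4:39B 336, U6:96Ab 12.6 and U5:23D 12.1. U7 was at 0 in all main controls of both stages and between 0.777 and 0.962 CPM in nuclear controls. Copies of U1, U2, U4, U5 and U6 are near-identical, and how reads that match several copies were counted is not given, so values of single copies are uncertain.

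Both 7SKa and the other members varied between the sets. In main controls 7SKa had 4570, 6020 and 6240 CPM at stage 5, and 4100, 4280 and 3710 at stage 2. The other 265 members together had 2620, 2930 and 3850 CPM in the same stage 5 controls but 1160, 1140 and 1330 in the wild-type Nejire rescue and 858, 642 and 900 in the wild-type Gcn5 rescue. Every library of both rescues lay below all 3 stage 5 controls in this sum. HDAC6KD replicate 2 at stage 5 had 778 CPM of 7SKa against 6480 in replicate 1. Among U5 copies the order was the opposite, with a sum of 2.29, 3.74 and 5.8 CPM in main controls at stage 5 against 46.5, 37.5 and 49.4 in the wild-type Nejire rescue. Date, line and depth differ between these sets, and their part was not tested.

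**Figure D1:**
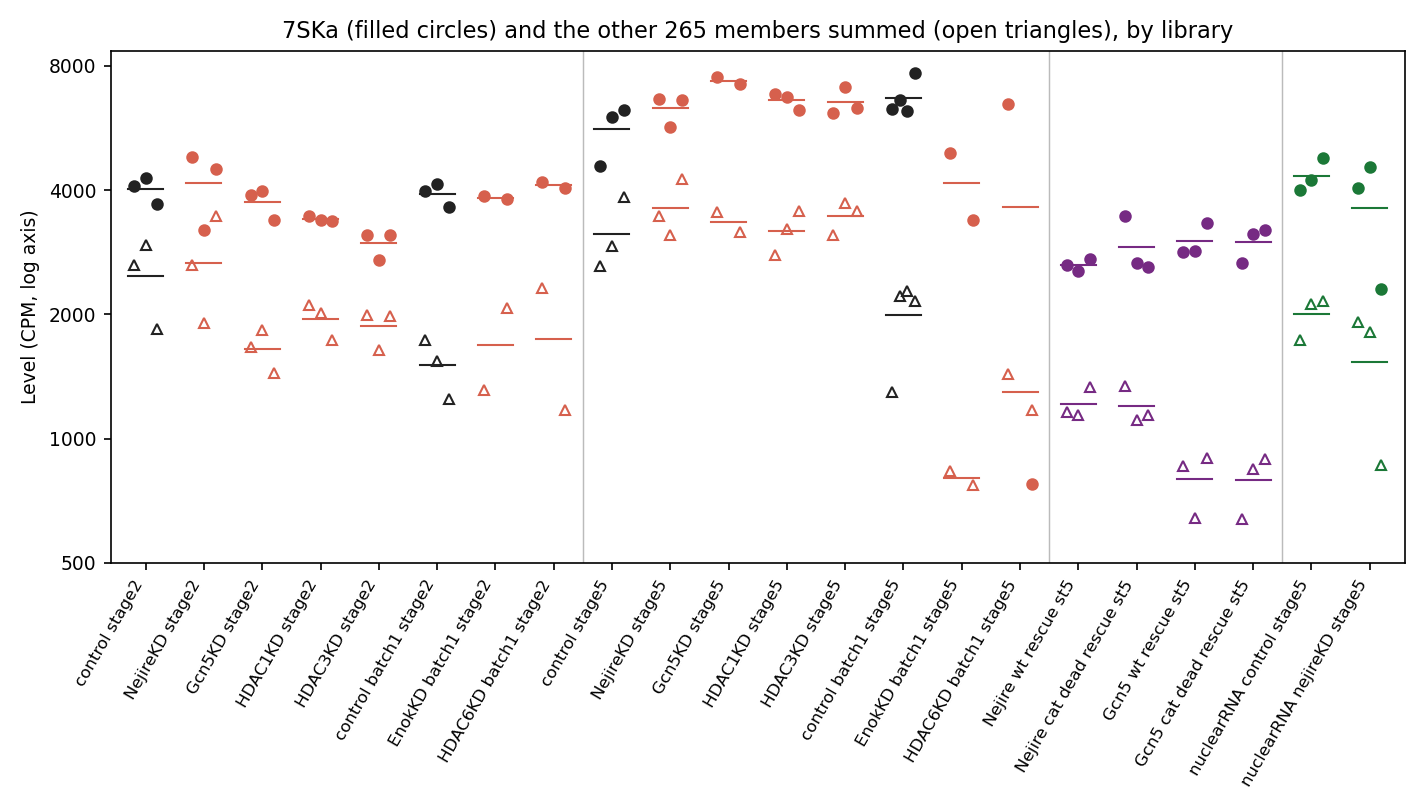
Level in CPM on a log axis in each of the 62 libraries, by group, for 7SKa (filled circles) and for the other 265 members summed (open triangles). Bars are group means. The rescue groups lie below the stage 5 main controls in both, and 1 HDAC6KD stage 5 library stands at 778 CPM of 7SKa.

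The first comparison asks how the small RNAs changed between stage 2 and stage 5 in control embryos. In the main controls 45 of 87 tested members rose and 3 fell (edgeR quasi-likelihood test, adjusted p under 0.05 over all genes), where 42.5% of all 7428 genes tested rose and 37.3% fell. In the batch1 controls 75 of 112 rose and 1 fell, where 48.9% of all genes rose and 38.3% fell. The median member difference was 0.73 on the log2 scale in the main set beside 0.15 over all genes, and 1.24 beside 0.27 in batch1. A gene was tested if it reached 1.26 CPM in the main set, or 1.31 CPM in batch1, in at least as many libraries as the smaller stage holds. A member that reached this at stage 5 alone had to be higher there: 31 of the 87 did so in the main set, with 23 of the rises, and 63 of the 112 in batch1, with 51 of the rises. Among members that reached it in each stage separately, 21 of 51 rose and 2 fell in the main set, and 24 of 41 rose and 1 fell in batch1. The counts over all tested members are therefore a description. These sets share no library. Of 86 members tested in both, 40 rose in both, which is 90.9% of the 44 that rose in the main set and 70.2% of the 57 that rose in batch1, and none was called in opposite directions. Over all 7395 genes tested in both, the shares were higher, at 92.2% and 85.1%, and 78 genes were called in opposite directions. Among the 86, members that entered through stage 5 alone had to rise and are not counted apart. The overlap of the 2 sets is therefore a description as well.

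**Figure D2:**
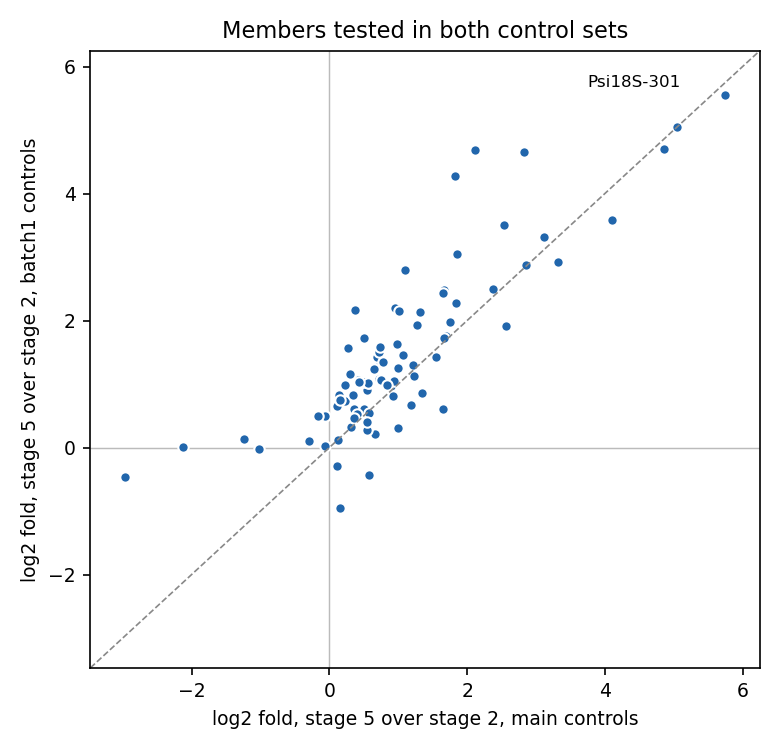
Each point is 1 of the 86 members tested in both control sets, at its log2 fold of stage 5 over stage 2 in the main controls (horizontal) and in the batch1 controls (vertical). The same sign was found for 77 of the 86, most of them in the upper right, and for 6711 of all 7395 genes tested in both. The 86 include members that entered through stage 5 alone and so had to rise.

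Of the H/ACA guides, 23 rose and 2 fell of 48 tested in the main set, and 45 of 65 rose in batch1. Among those that reached the minimum in each stage separately, 7 rose and 2 fell of 24 in the main set, and 9 of 17 rose in batch1. The members described next, Psi18S-301, Psi18S-1347b, Psi28S-3305b and gcl-a, reached it at stage 5 alone in both sets. Psi18S-301 (chr3R:20574906-20575043, plus strand, 138 bases, intergenic), named for a position in 18S rRNA, had 12.8, 25.2 and 24.7 CPM at stage 5 against 0.243, 0.42 and 0.386 at stage 2. It rose by 5.75 ± 0.38 (log2, standard error; adjusted p = 9.05e-07). In batch1 it had 10.3, 9.45, 17.1 and 15.3 CPM against 0.586, 0.291 and 0, a rise of 5.55 ± 0.49 (adjusted p = 8.95e-08), and in neither set did the stages overlap.

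Guides in introns rose as well, with hosts that did not move alike. Psi18S-1347b, Psi28S-3305b and gcl-a entered through stage 5 alone and had to rise, so no contrast with a host is read from them. Psi18S-1347b, in pAbp, the gene of the poly(A)-binding protein, had 1.99, 2.04 and 4.12 CPM against 0, 0.0933 and 0.0551 in the main set (5.05 ± 0.59, adjusted p = 3.96e-05) and rose by the same 5.05 ± 0.82 in batch1 (adjusted p = 4.88e-05), while pAbp rose by 0.99 and 0.73. Psi28S-3305b, in the RNA-binding protein gene Hrb98DE, had 2.53, 3.07 and 2.89 CPM against 0.364, 0 and 0.0551 (4.86 ± 0.67, adjusted p = 0.000124), and Hrb98DE rose by 1.24. Members within Hrb98DE rose in 3 of 4 tested in the main set and in 6 of 6 in batch1. Psi28S-3305b is among these, and those that entered through stage 5 alone had to rise and are not counted apart. The snoRNA gcl-a rose while its host gcl, which is needed to form germ cells, fell. In the main set gcl-a had 1.45, 1.41 and 4.95 CPM against 0.243, 0.56 and 0 (2.83 ± 0.83, adjusted p = 0.0113), and gcl fell by 1.32. In batch1 gcl-a rose by 4.65 ± 0.67 (adjusted p = 1.54e-05), and gcl fell by 3.46. Over all called members within a host, 28 of 34 in the main set and 55 of 63 in batch1 had a host called in the same direction, and 6 and 8 had one called in the opposite direction. Members that entered through stage 5 alone are included. Of all genes tested, 42.5% rose and 37.3% fell in the main set, and 48.9% rose and 38.3% fell in batch1. Several members share a host, with 61 tested members in 33 hosts in the main set and 90 in 45 in batch1. They are therefore not separate cases.

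Among the abundant members, 7SKa had 4690, 6170 and 6660 CPM at stage 5 against 4090, 4100 and 3590 at stage 2. The stages did not overlap and 7SKa rose by 0.57 ± 0.17 (adjusted p = 0.0106), with 1.02 ± 0.08 in batch1 (adjusted p = 2.83e-08). U1:95Cc, a U1 gene, rose by 0.74 (adjusted p = 0.0131) and 1.33 (adjusted p = 0.000123), and U12 rose by 0.5 ± 0.16 (adjusted p = 0.0173) and 0.6 (adjusted p = 0.016). U11, by contrast, differed by 0.12 in each set, U3:9B by 0.54 (adjusted p = 0.0584) and 0.28 (adjusted p = 0.277), and Psi28S-291 by 0.3 and 0.32, none of which passed the test. Of the major snRNAs 7 of 13 rose in the main set and 6 of 13 in batch1, and none fell.

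Of the scaRNAs 3 of 3 tested rose in the main set and 3 of 4 in batch1, in part through the filter, as given below. MeU5-C46 (chr3R:7472907-7473222, in an intron of CG1142), named for the U5 base it methylates, had 79.9, 78.2 and 112 CPM at stage 5 against 62.1, 59.1 and 45 at stage 2 (0.69 ± 0.18, adjusted p = 0.00576). Its rise in batch1 was 1.43 ± 0.24 (adjusted p = 5.64e-05). MeU2-48 rose by 2.56 ± 0.53 (adjusted p = 0.00165) and PsiU2-55, a pseudouridine guide of U2, by 1.32 ± 0.34 (adjusted p = 0.006). In batch1 their rises were 1.91 ± 0.52 (adjusted p = 0.00362) and 2.13 ± 0.36 (adjusted p = 6.54e-05). MeU2-48 was too low to be tested among the stage 2 libraries of either set. PsiU2-55 had 1.01, 0.868 and 0.931 CPM in batch1 controls at stage 2, below the minimum of 1.31 CPM. MeU2-48, and PsiU2-55 in batch1, thus entered through stage 5 and had to rise, so these calls are a description.

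Genes of the proteins that work with these RNAs moved in both directions. The shares of all genes to set beside these short lists were 42.5% up and 37.3% down in the main set. In batch1 they were 48.9% up and 38.3% down. The snRNP-specific proteins rose in 10 of 11 in each set, among them Sf3b1 of the U2 particle by 1.06 and the helicase Brr2 by 1.26, whereas U2A fell by 2.41 ± 0.22. The noncoding snoRNA host genes rose in 5 of 6 in each set, for example Uhg5 by 3.23 ± 0.26 and Uhg1 by 2.96. In the 7SK particle and P-TEFb, 2 rose and 2 fell of 5 in the main set and 2 rose and 3 fell in batch1. Larp7 fell by 2.51 ± 0.23 (adjusted p = 7.92e-06) while the kinase Cdk9 rose by 0.85 ± 0.12 (adjusted p = 0.000122). Of the other lists, in the main set the Integrator complex, which cleaves snRNA precursors, had 4 up and 7 down of 13, the SMN and maturation genes 6 up and 3 down of 10, the LSm proteins 1 up and 3 down of 7, the Sm proteins 2 up of 6, the C/D proteins 2 up of 3, the H/ACA proteins 3 up and 1 down of 5 and the snRNA promoter factors 1 up and 2 down of 4.

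A single gene for U2, the snRNA that pairs with the branch point, was lower in most of the knockdown crosses. U2:34ABa (chr2L:13211925-13212116, minus strand, intergenic, 192 bases) had 91.7, 94.4 and 59.4 CPM in main controls at stage 2. It had 0.292, 0 and 0.195 CPM in Gcn5KD, a fall of 8.92 ± 0.41 (log2, adjusted p = 2.24e-09), and 0.42, 0.18 and 0.562 CPM in HDAC3KD, a fall of 7.37 ± 0.32 (adjusted p = 4.4e-10). In HDAC1KD it was at 0 in all 3 libraries, at least 382-fold lower than the control mean of 81.8 ± 19.5 CPM (SD, n = 3) when set against a floor of 3 counts over the group (adjusted p = 4.34e-08 by edgeR). In NejireKD the values of 45.7, 33.0 and 53.5 CPM also lay below all 3 controls, but by 0.88 ± 0.19 (adjusted p = 0.00704). These comparisons share their controls.

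At stage 5 the same gene had 102, 81.4 and 126 CPM in main controls. It had 19.4 and 18.2 CPM in Gcn5KD (a fall of 2.44 ± 0.22, adjusted p = 3.77e-07), 9.45, 11.5 and 9.26 in HDAC1KD (a fall of 3.36 ± 0.21, adjusted p = 3.01e-09) and 7.74, 14.1 and 7.49 in HDAC3KD (a fall of 3.42 ± 0.21, adjusted p = 1.21e-08), with no overlap with controls. NejireKD, at 86.3, 84.9 and 93.0 CPM, lay among the controls (-0.22, adjusted p = 0.353). In batch1 controls U2:34ABa had 31.8, 73.8, 54.6 and 50.5 CPM at stage 5 against 8.26 and 6.69 in EnokKD (a fall of 2.84 ± 0.34, adjusted p = 0.0014) and 2.68 and 4.09 in HDAC6KD (a fall of 3.92 ± 0.36, adjusted p = 0.000398). The Enok call was lost without EnokKD replicate 2 (adjusted p = 0.0551), and the HDAC6 fall was 4.29 without replicate 2, the library with conflicting stage fields. At stage 2 it had 27.5, 26.3 and 38.2 CPM in batch1 controls against 0.878 and 0.273 in HDAC6KD (a fall of 5.72 ± 0.45, adjusted p = 2.65e-05), while the difference in EnokKD was -0.77 (adjusted p = 0.1).

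On a scale common to all 62 libraries, U2:34ABa was below 1 CPM in every rescue library, wild-type and catalytic dead alike, with a highest value of 0.928 CPM. Nuclear controls had 35.1 to 46.2 CPM and nuclear NejireKD 6.87 to 12.8. The other U2 copies summed did not share this range: they had 16, 23.8 and 21.3 CPM in main controls at stage 2, 14.9, 18.6 and 13.7 in HDAC1KD and 9.43, 10.6 and 10.6 in Gcn5KD. At stage 5 they had 25.5, 27.2 and 39.8 CPM in controls and 30.8, 37.2 and 35.1 in HDAC3KD. The gene was thus at or near 0 in crosses where the other copies were still counted, and the knockdown and the parental line cannot be told apart.

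**Figure D3:**
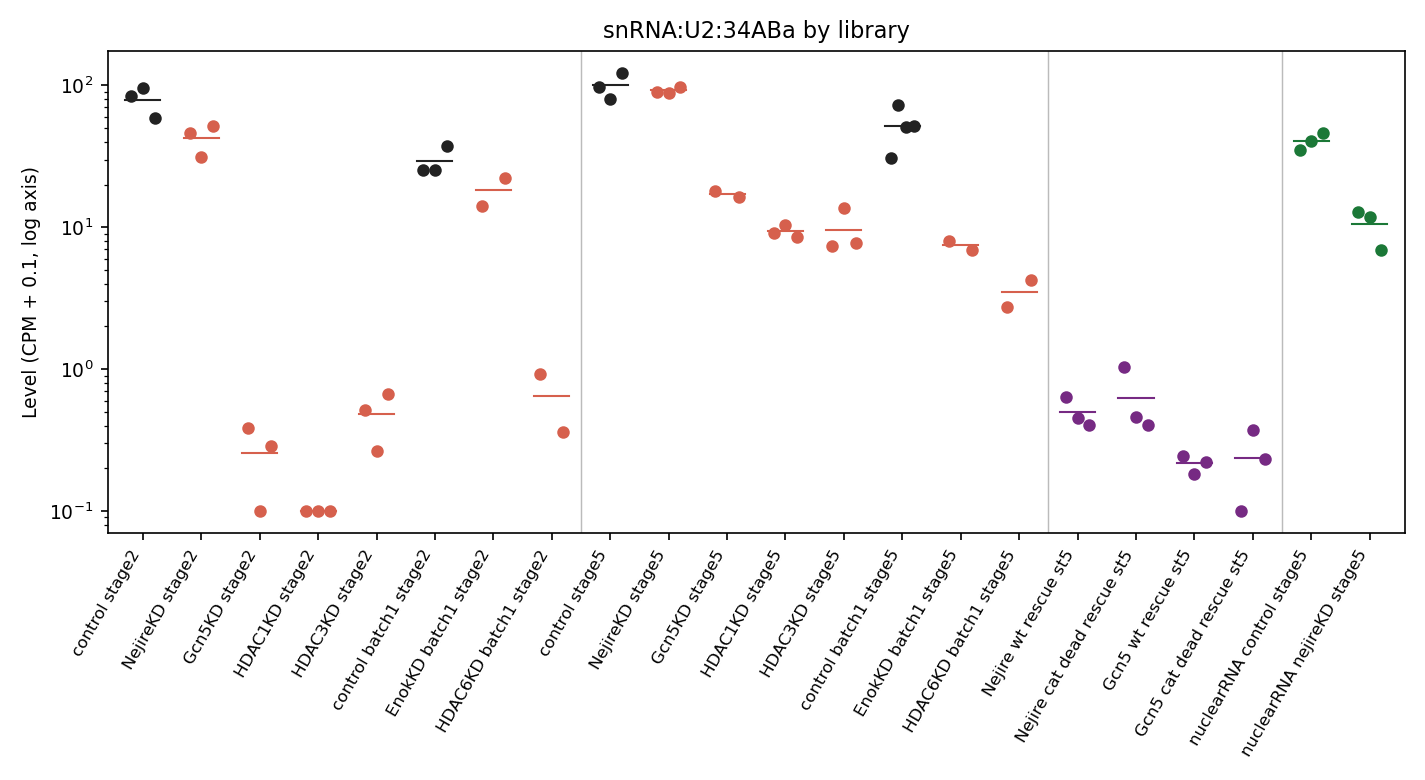
Level of U2:34ABa in CPM + 0.1 on a log axis in each library, by group, so that a count of 0 is drawn at 0.1; bars are group means. Stage 2 libraries of Gcn5KD, HDAC1KD and HDAC3KD and all rescue libraries lie below 1 CPM, and the control and NejireKD total RNA libraries lie above 25 CPM.

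Among the knockdown comparisons, Gcn5KD at stage 2 had the most called members, all in 1 direction. In Gcn5KD 45 of 79 tested members fell and none rose, where 17.6% of all genes fell, and the median was -1.09 beside 0.01 over all genes. The libraries of both groups did not overlap for 41 of the 79, where 48.6% of all genes tested had no overlap. The falls ran through the classes, with 21 of 42 H/ACA guides (median -1.17), 10 of 13 major snRNAs (median -1.42) and 4 of 7 C/D guides. Those 4 were U3:54Aa, U3:54Ab, Or-CD2 and Me18S-C1968. Also lower were 7 of 9 other snoRNAs, 2 of 3 minor snRNAs and 1 of 3 scaRNAs. Other genes of at most 500 exon bases did not move this way, with 19 up and 5 down of 110 (median 0.05). The number of members that fell was 23 without control replicate 2 and 25 without Gcn5KD replicate 3, and between 33 and 55 without any other library of the fit.

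All 45 members that fell also passed the minimum level for testing without the control libraries. The next 3 members fell with no overlap between groups. Psi28S-291 (chr3R:11223571-11223790, in an intron of the ribosomal protein gene RpL3) had 218, 226 and 183 CPM in Gcn5KD against 382, 357 and 270 in controls (-0.68 ± 0.17, adjusted p = 0.005). Tudor-SN-a (chr3L:259970-260280, in an intron of Tudor-SN) had 68.7, 72.6 and 61.2 CPM against 134, 141 and 94.7 (-0.86 ± 0.17, adjusted p = 0.000825). The scaRNA MeU5-C46 had 35.7, 34.1 and 25.7 CPM against 67.9, 61.1 and 46.8 (-0.87 ± 0.18, adjusted p = 0.00148). U11 had 350, 441 and 293 CPM against 697, 684 and 379 (-0.7 ± 0.22, adjusted p = 0.0228), and Or-aca4 fell by 0.87 (adjusted p = 0.0429). For both the highest Gcn5KD library lay above control replicate 3, so the groups overlapped. 7SKa at -0.08 (adjusted p = 0.603) and U12 at -0.12 (adjusted p = 0.571) were not called.

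Several members with few counts fell from an uneven control group. U5:23D, a U5 gene in an intron of the fatty acid synthase gene FASN2, had 0, 0.271 and 0 CPM in Gcn5KD against 10.9, 0.627 and 0.802 in controls (-4.96 ± 1.43, adjusted p = 0.0128). Or-CD2, a C/D snoRNA within Uhg4 that lies opposite an exon of Ctu1, had 0.487, 0.542 and 0.778 CPM against 19.9, 12.2 and 1.37 (-4.1 ± 1.19, adjusted p = 0.0132). Psi28S-3342 (chrX:5524302-5524465, minus strand, intergenic) had 0.876, 1.08 and 0.778 CPM against 23, 7.72 and 1.09 (-3.38 ± 1.01, adjusted p = 0.0161). Control replicate 1 was the highest in each case, and the call of Psi28S-3342 was lost without it (-2.28, adjusted p = 0.0682) and without Gcn5KD replicate 3 (-3.28, adjusted p = 0.0572). Of 28 called members within a tested host, 8 had a host called lower, 5 a host called higher and 15 a host that was not called.

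At stage 5 most of the members called in Gcn5KD were higher. In Gcn5KD 17 of 127 tested members rose and 1 fell, fewer than the 27.4% of all genes that rose (51.7% were called in either direction), and the median was 0.29 beside 0.08 over all genes. The count was 9 without Gcn5KD replicate 2, which leaves 1 knockdown library. Eggshell genes summed to 1.8 to 2.85 CPM in Gcn5KD against 0 to 0.249 in controls, with 3 of 6 and 2 of 6 counted, and their part was not tested. 7SKa had 8170 and 8040 CPM against 4780, 6120 and 6390 in controls (0.49 ± 0.12, adjusted p = 0.00324). Psi28S-3342 had 90.6 and 190 CPM against 17.1, 29.5 and 38.8 (2.34 ± 0.4, adjusted p = 0.000126), and Psi28S-1175b, in an intron of the ribosomal protein gene RpS16, had 1.73 and 1.6 CPM against 0, 0.38 and 0 (3.06 ± 0.85, adjusted p = 0.00656). All 3 lay above every control, and the 1 member that fell was U2:34ABa. The controls of Psi28S-1175b did not reach the minimum level for testing. It entered through knockdown libraries, so its rise is a description. Of the 17 rises, 16 were in members that met the minimum without the Gcn5KD libraries.

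Whether a knockdown acted differently at the 2 stages was tested with an interaction term, the stage 5 effect less the stage 2 effect, in 1 fit of a whole set (an alternative added after the data had been seen). For Gcn5KD it was positive for 46 members and negative for none, where 13.7% of all genes were called positive, with a median of 1.43. The difference was 5.62 ± 1.07 for Psi28S-3342, 7.33 ± 1.67 for Or-CD2, 6.31 ± 1.46 for U5:23D, 1.1 ± 0.26 for MeU5-C46 and 0.55 ± 0.18 for 7SKa. Psi28S-3342, Or-CD2 and U5:23D had the uneven stage 2 controls given above, and this fit was not repeated with single libraries left out. For HDAC1KD 7 members (18.8% of all genes) and for HDAC3KD 6 members (8.03% of all genes) were called positive and none negative. For NejireKD 1 was positive and 1 negative of 145 (20.1% of all genes in either direction), and for HDAC6KD edgeR called none of 137, with 16 at an unadjusted p under 0.05 (0.24% of all genes). Of the protein genes, Hexim, which holds P-TEFb in the 7SK particle, fell in Gcn5KD at stage 5 from 76.5 to 12 CPM (-2.68 ± 0.25, adjusted p = 4.58e-07). All 7 tested LSm genes rose there, where 27.4% of all genes rose.

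In EnokKD at stage 5 the called members were all lower. Of 133 tested, 13 fell and none rose, where 2.61% of all genes fell and 3.96% were called in either direction, and the median was -0.77 beside 0 over all genes. The 12 members over 200 bases gave 7 of the falls (median -1.72). Tudor-SN-a had 12.4 and 16.7 CPM against 53.1, 94.4, 97.8 and 94.5 (-2.52 ± 0.41, adjusted p = 0.00728), and Psi28S-3342 had 7.57 and 9.04 CPM against 22, 34.2, 39 and 45 (-2.07 ± 0.28, adjusted p = 0.00332). Both EnokKD libraries were below every control, but with 2 libraries the calls were unstable: the count was 1 without EnokKD replicate 1, 0 without EnokKD replicate 2, 5 without control replicate 2 and 4 without control replicate 4. The call of Tudor-SN-a was lost without EnokKD replicate 1 (-2.34, adjusted p = 0.0899) or replicate 2 (-2.77, adjusted p = 0.105), and so was that of Psi28S-3342 (-1.96, adjusted p = 0.0525, and -2.21, adjusted p = 0.0605). Other genes of at most 500 exon bases had 4 falls of 173 and a median of -0.35. At stage 2 none of 80 members was called in EnokKD by edgeR or DESeq2, with 5 at an unadjusted p under 0.05, where 5.34% of all genes were called, and 1 was called without EnokKD replicate 2. The interaction was called negative for 4 of 137 members, where 0.336% of all genes were, among them Tudor-SN-a (-2.51 ± 0.57) and U2:34ABa (-2.08 ± 0.46).

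In HDAC1KD at stage 5, 12 members rose and 9 fell of 127, a smaller share than the 56.0% of all genes called. Late neural and muscle genes summed to 149 to 182 CPM in HDAC1KD and 167 to 192 in HDAC3KD against 84.7 to 97.4 in controls. Of the 6, those at 0 were wupA in HDAC1KD and controls, and Mhc and wupA in HDAC3KD. Zygotic markers summed to 675 to 818, 974 to 1090 and 805 to 976 CPM in the same order, and all 6 eggshell genes were at 0 in both knockdowns. Their part in the results was not tested. CG32479-b, a snoRNA in an intron of the deubiquitinase gene Usp10, had 19.1, 23.9 and 29.1 CPM against 11.2, 10.1 and 15.0 (1.02 ± 0.27, adjusted p = 0.00351) while Usp10 fell by 0.57 (adjusted p = 0.0087). Me18S-C1968, a methylation guide of 18S rRNA in Swim, had 1.83, 2.29 and 3.09 CPM against 6.27, 6.34 and 9.49 (-1.62 ± 0.36, adjusted p = 0.000941), and U1:95Ca had 1.68, 0.255 and 1.16 against 3.13, 4.06 and 4.75 (-1.69 ± 0.52, adjusted p = 0.0102). Groups did not overlap for any of these 3. Of the major snRNAs, 4 of 15 fell and none rose, and of the 12 members over 200 bases 7 rose and 1 fell. The share of all genes called in each direction is not given here, so these counts by class are a description.

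In HDAC3KD at stage 5, 5 rose and 1 fell of 127 (34.8% of all genes), and U12 had 452, 528 and 487 CPM against 287, 329 and 375 (0.57 ± 0.15, adjusted p = 0.00615). The HDAC3KD count was 3 without control replicate 1 or control replicate 2, and 11 without control replicate 3. At stage 2, 7 members fell in HDAC3KD and none rose of 79 (8.85% of all genes fell), and U3:9B had 131, 128 and 145 CPM against 174, 249 and 186 (-0.59 ± 0.12, adjusted p = 0.00238), with no overlap. That count was 3 without control replicate 2 and 14 without control replicate 3. In HDAC1KD at stage 2, 1 rose and 1 fell (15.9% of all genes), with 5 called without control replicate 3 and 1 without control replicate 2 or without any single knockdown library.

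In NejireKD at stage 5, 4 members rose and 5 fell of 127 (37.9% of all genes), and the count was 5 without control replicate 2. Zygotic markers, all 5 counted in both groups, summed to 190 to 302 CPM against 805 to 976 in controls. Late neural and muscle genes summed to 16.1 to 29.4 CPM against 84.7 to 97.4, with all 6 counted in NejireKD and wupA at 0 in controls, and the part of either list in the result was not tested. Dek-a, a snoRNA in the chromatin protein gene Dek, had 21, 18.7 and 14.2 CPM against 9.77, 6.84 and 9.49 (1.09 ± 0.28, adjusted p = 0.00529). Psi18S-1397, in CG10576, had 0.267, 0.378 and 0.176 CPM against 3.13, 1.01 and 1.58 (-2.73 ± 0.69, adjusted p = 0.00454), and Psi18S-301 had 11.1, 2.46 and 9.83 against 13.1, 25 and 23.7 (-1.33 ± 0.35, adjusted p = 0.00563). No library overlapped between groups for these 3. In HDAC1KD Psi18S-301 was lower as well, at 10.4, 9.67 and 9.84 CPM (-1.03 ± 0.34, adjusted p = 0.0169), a call lost without control replicate 2 (-0.82, adjusted p = 0.0936).

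At stage 2, NejireKD called 1 member up and 1 down of 79 (10.1% of all genes). The member that rose was CG32479-a, with 16, 11 and 16.2 CPM against 10.2, 8.49 and 8.99 (0.67 ± 0.18, adjusted p = 0.0214), a call lost without control replicate 2 (0.61, adjusted p = 0.107) or replicate 3 (0.66, adjusted p = 0.0537) and without NejireKD replicate 1 (0.59, adjusted p = 0.0882) or replicate 3 (0.58, adjusted p = 0.0691). The count was 1 without control replicate 3 or NejireKD replicate 1, and 4 without NejireKD replicate 2 or replicate 3. HDAC6KD at stage 5 called 3 members, all lower (0.588% of all genes fell, 1.42% were called), and at stage 2 it called 1 up and 1 down of 80 (3.16% of all genes). The stage 5 count was 12 without HDAC6KD replicate 1, 5 without control replicate 1 and 1 without control replicate 3 or replicate 4, and it stayed at 3 without the library with conflicting stage fields. The stage 2 count was 1 without any single control or without HDAC6KD replicate 1.

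**Figure D4:**
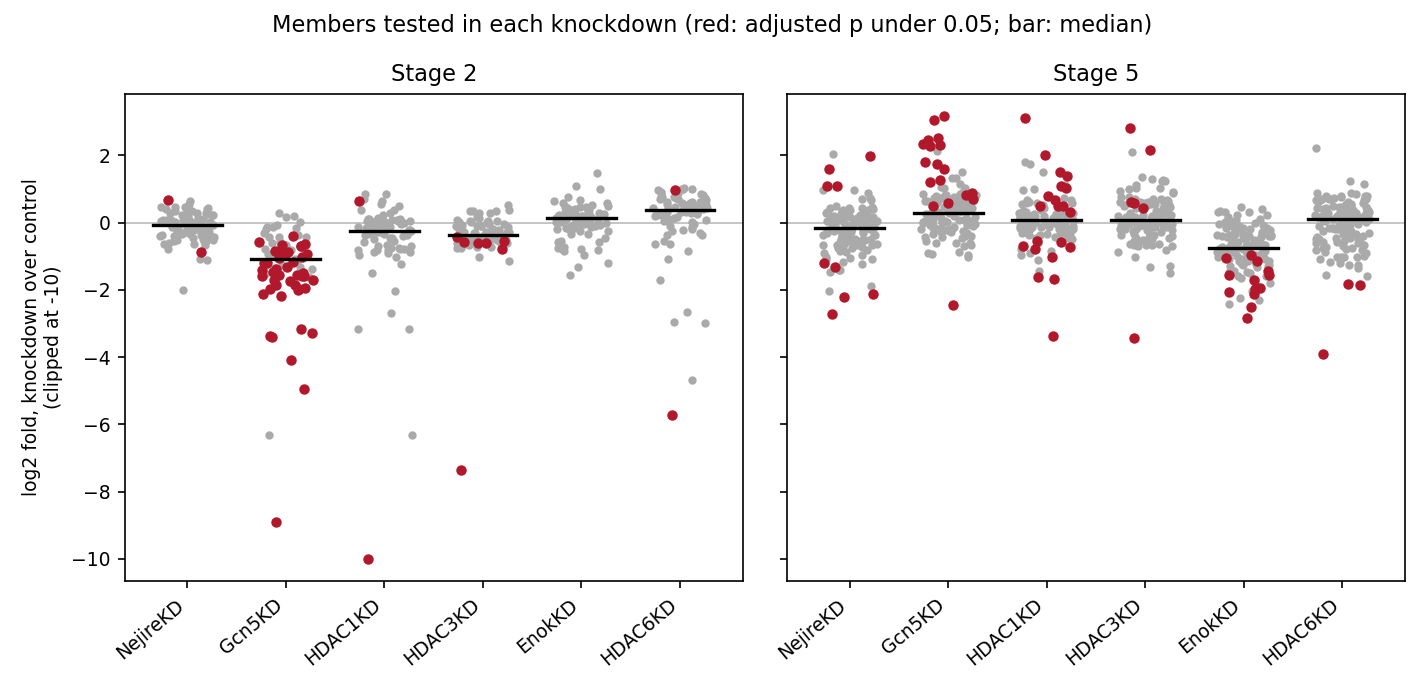
Each point is 1 tested member at its log2 fold of knockdown over control, clipped at -10, for 6 knockdowns at stage 2 and stage 5; red points passed an adjusted p of 0.05 and the bar is the median. Gcn5KD at stage 2 has its median at -1.09 and EnokKD at stage 5 at -0.77.

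No tested member was called between the wild-type and the catalytic dead rescues. For Nejire none of 108 members was called by edgeR or DESeq2, with 5 at an unadjusted p under 0.05, where 0.258% of all genes were called. For Gcn5 none of 116 was called by either tool and none had an unadjusted p under 0.05, where 0.0% of all genes were called. A difference in small RNAs between these rescues was not detectable with 3 libraries each.

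The next comparison sets nuclear RNA against total RNA of stage 5 controls. Of 164 tested members 73 were higher in nuclear RNA and 35 lower, where 30.9% of all genes were higher and 31.2% lower (62.2% in all), and the member median was 0.61 beside -0.01. The nuclear libraries were made on another date, from more embryos and from a control with no cross named, so fraction and set cannot be told apart. The nuclear noncoding RNAs roX1, roX2 and Hsromega summed to 3490 to 5690 CPM in nuclear RNA and 1280 to 1520 in total RNA, and the 8 mitochondrial genes listed as cytoplasmic markers were at 0 in every library of both. Eggshell genes, which mark the mother's follicle cells, were counted in nuclear controls for 6 of 6 (sum 11.9 to 21.4 CPM) and in total RNA for 2 of 6 (0 to 0.249), with Vm26Aa, Vm26Ab, Vm34Ca and Cp38 at 0. Late neural and muscle genes were counted for 6 of 6 (205 to 299 CPM) against 5 of 6 (84.7 to 97.4), with wupA at 0. Their part in the result was not tested.

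Many of the members that were higher had to be so, since they entered the test through the nuclear libraries alone. Of the 164, 68 reached the minimum of 0.864 CPM only there, with 55 of the 73 higher calls, and 7 only in total RNA, with 5 of the lower calls. Of the 87 that reached it in each fraction separately 18 were higher and 30 lower (median -0.18). C/D guides were higher in 17 of 24, members of at most 100 bases in 19 of 25 and members in introns of noncoding hosts in 12 of 14, but 18, 20 and 11 of these tested members, and all 6 of Uhg5, entered through the nuclear libraries alone, so no difference by size or place is read from them. Of the H/ACA guides, 53 reached the minimum in each fraction, and 14 of these were higher and 13 lower. Other genes of at most 500 exon bases had 57 higher and 84 lower of 196 (median -0.27).

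Of the 5 tested U5 copies, U5:23D was the one that reached the minimum in each fraction. U5:23D had 11.5, 17.2 and 16.6 CPM against 1.55, 1.21 and 1.95 in total RNA (3.36 ± 0.3). The other 4 copies, also called higher, entered through nuclear RNA alone, as did Me18S-A1061, kis-a and the 2 scaRNAs given here. U5:38ABa (chr2L:19811948-19812074) had 4.76, 5.31 and 4.27 CPM against 0 in all 3 total RNA controls, at least 26.5-fold higher (adjusted p = 1.4e-05). The methylation guide Me18S-A1061, in Uhg5, had 1.62, 2.35 and 2.7 CPM against 0 in all 3, at least 12.3-fold higher (adjusted p = 0.000202). These members did not overlap between fractions. kis-a, in the chromatin remodeller gene kis, had 1.97, 2.09 and 2.83 CPM against 0, 0.121 and 0 (5.01 ± 0.73, adjusted p = 0.000105). Of 7 tested scaRNAs, PsiU2-38.40.42 (2.69 ± 0.73, adjusted p = 0.00709) and PsiU6-40 (1.56 ± 0.54, adjusted p = 0.023) were higher and none was lower.

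Of the 12 members over 200 bases, all of which reached the minimum in each fraction, 8 were lower, 1 was higher and 3 were not called. U3:9B had 23.4, 25.8 and 28.5 CPM in nuclear RNA against 198, 241 and 363 in total RNA (-3.36 ± 0.21, adjusted p = 2.94e-07). Psi28S-2566, in an intron of CG3902, had 85.2, 104 and 89.4 CPM against 226, 337 and 470 (-1.88 ± 0.22, adjusted p = 1.72e-05). Psi18S-531, in an intron of lncRNA:CR42491, had 3.07, 2.42 and 2.96 CPM against 29.9, 19.8 and 26.5 (-3.15 ± 0.23, adjusted p = 6.99e-07). Fractions did not overlap for these 3. Among genes with few counts, LU, an snRNA gene in FASN2 near U5:23D, which entered through total RNA alone, was at 0 in all 3 nuclear controls against 2.58, 1.34 and 3.11 CPM, at least 37.0-fold lower (adjusted p = 7.21e-05). Psi28S-2622 had 1.62, 1.68 and 1.71 CPM against 17.2, 15.1 and 21.8 (-3.39 ± 0.24, adjusted p = 5.65e-07). On the log2 scale the difference was -1.61 for U1:95Cc, -1.57 for U12, -1.16 for U11 and -0.47 for 7SKa (adjusted p = 0.026), and U4atac was higher by 0.63.

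The choice of total RNA decided which members were lower. With the wild-type Nejire rescue as total RNA, an alternative added after the data had been seen, 131 of 171 members were higher and 4 lower, with a median of 1.18 beside 0.03, where 39.8% of all genes were higher and 36.6% lower. Of the 73 members that were higher against controls 65 stayed higher, but of the 35 that were lower 3 stayed lower and 18 were called higher. Most of those 73 had entered through the nuclear libraries alone, and the same nuclear libraries serve here, so that they stayed higher is no separate check. Members that entered through nuclear RNA alone are not counted apart among the 171. U3:9B was then 0.54 (adjusted p = 0.0316), Psi18S-531 0.26, Psi28S-2622 0.08 and Psi28S-2566 -0.05 (adjusted p = 0.687).

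In NejireKD the nuclear to total comparison gave 12 members higher and 40 lower of 121, where 24.7% of all genes were higher and 25.2% lower, and a median of -0.57 beside 0.05. Of the 121, 24 reached the minimum of 0.739 CPM only in nuclear RNA, with 11 of the higher calls, and 17 only in total RNA, with 11 of the lower calls. Of the 69 that reached it in each fraction 1 was higher and 29 lower (median -0.78). The 1 was the U5 copy U5:63BC (3.08), and the other 5 tested U5 copies, called higher as well, entered through nuclear RNA alone. U5:38ABa had 3.56, 5.42 and 1.91 CPM against 0.0883, 0 and 0 (6.09 ± 0.89, adjusted p = 0.00069), and U5:23D had 20.5, 17.2 and 8.47 against 0.971, 2.28 and 0.707 (3.61 ± 0.49, adjusted p = 0.000456). U3:9B had 31.6, 32.4 and 11.7 CPM against 199, 224 and 324 (-3.3 ± 0.37, adjusted p = 0.000166). LU was again at 0 in all 3 nuclear libraries against 1.32, 3.42 and 2.83 CPM, at least 48.6-fold lower (adjusted p = 0.00107). These 4 members lay on the same side of total RNA in both genotypes, with no overlap between fractions. For U5:38ABa and LU in both genotypes, and for U5:23D in NejireKD, the filter fixed the side. U3:9B in controls was 0.54 when the wild-type Nejire rescue served as total RNA. The shared side is therefore a description.

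Within nuclear RNA, NejireKD was set against control after scaling to the spike-in. Of 184 tested members 23 fell and none rose, where 9.91% of all genes fell, and the median was -1.76 beside -0.29 over all genes. The groups did not overlap for 156 of 184 members, where 30.6% of all genes tested had no overlap. Of the 184, 79 reached the minimum of 0.609 CPM only in controls, with 20 of the 23 falls, and so had to be lower in NejireKD. Of the 101 that reached it in each group 3 fell (median -1.36). Zygotic markers summed to 121 to 307 CPM in nuclear NejireKD against 1840 to 2030 in nuclear controls, eggshell genes to 1.64 to 2.13 against 11.9 to 21.4 and late neural and muscle genes to 12.1 to 48.8 against 205 to 299, with no marker at 0 in either group. Their part in the result was not tested. C/D guides fell in 10 of 33, all 10 of them reaching the minimum only in controls, and H/ACA guides fell in 7 of 95, 5 of them so. Of the major snRNAs 1 of 18 fell, and no scaRNA or minor snRNA was called. Other genes of at most 500 exon bases had 11 up and 44 down of 240 (median -0.74).

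Me18S-C1366 and lola-d reached the minimum only in controls, and U2:34ABa in each group. Me18S-C1366, a methylation guide in Uhg5, had 0.255, 0.147 and 0.899 CPM on the spike-in scale against 5.56, 6.45 and 4.14 (-3.76 ± 1.06, adjusted p = 0.00521), and its host fell by 2.49 (adjusted p = 0.0186). lola-d, in the transcription factor gene lola, had 0.199, 0.368 and 0.225 CPM against 3.39, 5.25 and 3.66 (-3.9 ± 1.08, adjusted p = 0.0042), while lola itself was at -0.5 (adjusted p = 0.888). U2:34ABa had 7.15, 6.92 and 15.9 CPM against 53.4, 59.4 and 52.1 (-2.46 ± 0.8, adjusted p = 0.0197). No library overlapped between groups for these 3. 7SKa had 2260, 2650 and 5350 CPM against 6090, 6230 and 5380, and its difference of -0.79 was not called (adjusted p = 0.757). Of 21 called members within a tested host 5 had a host called lower and 16 a host not called.

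The count in nuclear RNA rested on the scale and on single libraries. Scaled by TMM over fly genes, which moves the median of all genes from -0.29 to -0.01, 107 members fell and 1 rose, and the member median was -1.21. On the spike-in scale the count was 0 without any single control, 13 without NejireKD replicate 1, 2 without replicate 2 and 191 without replicate 3, of which 190 fell. For these settings neither the share of all genes called nor the members that met the minimum only in controls are given here. The counts therefore show how calls moved with the setting and are not read as a result about the members. The calls of Me18S-C1366, lola-d and U2:34ABa were lost without any single control (adjusted p between 0.0631 and 0.168), that of Me18S-C1366 also without NejireKD replicate 2 (-3.3, adjusted p = 0.1), and that of U2:34ABa also without replicate 1 (-2.27, adjusted p = 0.0793) or replicate 2 (-2.26, adjusted p = 0.103). Replicate 3 is the library whose spike-in share stood apart.

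**Figure D5:**
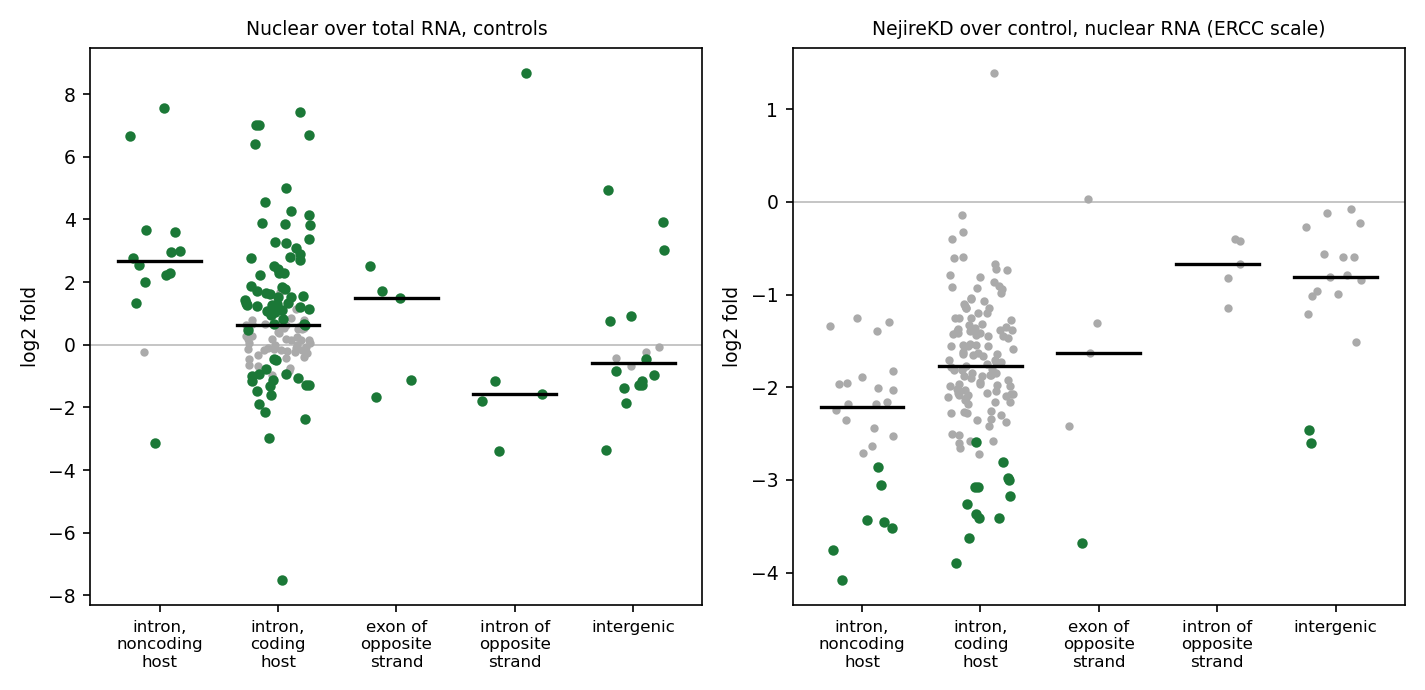
Each point is 1 tested member at its log2 fold, by its place in the annotation, for nuclear over total RNA in controls (left) and for NejireKD over control within nuclear RNA on the spike-in scale (right); green points passed an adjusted p of 0.05 and the bar is the median. Of the 14 members in introns of noncoding hosts on the left, 11 entered the test through nuclear RNA alone, and all called points on the right lie below 0.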

How the data were processed

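The tables deposited by the authors hold raw read counts by gene, not normalised, one for total and one for nuclear RNA, and the nuclear table adds 92 ERCC spike-in transcripts. The submitters' processing notes name bcl2fastq 2.20.0.422 and the build dm6; the sources used here name no aligner, counter, strand setting or rule for reads with several matches. Members and lists were chosen with earlier results of these data known. Places came from Ensembl release 115 (17626 of 17753 IDs matched).

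All 62 libraries in 22 groups were used. Genes passing filterByExpr (10 counts, 15 in total) were tested in R 4.3.3 with edgeR 4.0.16 (TMM, quasi-likelihood F test, Benjamini-Hochberg adjusted p under 0.05 over all genes tested). The 5 main groups of a stage, or the 3 of batch1, were fitted together, and other comparisons alone. In the nuclear comparison of genotypes, summed ERCC counts set the library size, since the labels give the spike-in that purpose. CPM beside a fold use that fit's scale, and levels across groups use TMM over all libraries. Named members were called, did not overlap between groups and reached 1 CPM in one of them; they were taken from the greatest changes of each comparison, with a panel of abundant members, scaRNAs and snRNAs. Host genes and lists of partner proteins (C/D, H/ACA, Sm, LSm and snRNP-specific proteins, SMN and maturation, promoter factors, Integrator, 7SK particle, snoRNA host genes) were read from the same fits. No 2 libraries were identical. DESeq2 1.42.0, other scalings and filters, a replicate block and leaving out single libraries were tried. Depth limits the members below 1 CPM.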

Additional observations from a re-analysis of the deposited data

Results flagged for a closer look

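Members whose knockdown effect differed between stage 5 and stage 2, by an interaction term in edgeR's quasi-likelihood test with adjustment over all genes, numbered 2 for NejireKD, 46 for Gcn5KD, 7 for HDAC1KD, 6 for HDAC3KD and 4 for EnokKD. For Gcn5KD the stage 5 effect minus the stage 2 effect, on the log2 scale, was 7.33 for Or-CD2, 6.46 for U2:34ABa, 6.31 for U5:23D, 5.62 for Psi28S-3342, 4.7 for Psi28S-1175b, 1.1 for MeU5-C46, 0.94 for Tudor-SN-a and 0.55 for 7SKa. Stage 2 controls were uneven for Or-CD2, U5:23D and Psi28S-3342, and main controls at stage 5 were below the minimum level for Psi28S-1175b. For U2:34ABa the difference was 9.37 in HDAC1KD, where the stage 2 libraries were all at 0 so that this value depends on the prior count and is no bound, 3.93 in HDAC3KD and -2.08 in EnokKD. It was 0.97 for CG32479-b in HDAC1KD, -2.51 for Tudor-SN-a in EnokKD and -2.25 for Psi18S-301 in NejireKD.

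In the batch1 controls at stage 5, replicate 1 lay apart below the other 3 libraries. Its gap to the next library was 0.896 of the group's range for Tudor-SN-a and 0.867 for the summed CPM of all members but 7SKa, above the critical value of Dixon's test for 4 libraries; chance flags about 1 in 20 groups, and 9 values were tested. Without that library EnokKD at stage 5 still called 13 members.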

How the results depend on the processing

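Of the named members' values, 244 kept direction and call under another setting and 295 with 1 library left out, 3 and 24 lost the call, and 3 reversed: with the wild-type Nejire rescue as total RNA, added after the data had been seen, U3:9B was 0.54, Psi18S-531 0.26 and Psi28S-2622 0.08. The cause was not tested.

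With no filter on low counts more members entered the fits, and the called members numbered 15 for NejireKD, 11 for HDAC3KD, 29 for EnokKD and 15 for HDAC6KD at stage 5, and 4 for NejireKD, 5 for HDAC1KD, 11 for HDAC3KD, 3 for EnokKD and 8 for HDAC6KD at stage 2. It gave 104 and 150 for the stages in the main and batch1 controls, 15 in nuclear NejireKD and 1 for the Nejire rescues. DESeq2 called 23 in EnokKD and 6 in HDAC6KD at stage 5 and 63 in nuclear NejireKD. TMM over fly genes called 108 there. The shares of all genes called under these settings are not given, so the counts show only how the calls moved. Only the controls named for Enok and HDAC6 gave 4 and 1 at stage 5. That setting leaves out batch1 control replicate 4 and so is the same fit as leaving out that library, not a further check.

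With 1 library left out, the called members ranged at stage 5 from 5 to 12 in NejireKD, 9 to 24 in Gcn5KD, 14 to 18 in HDAC1KD, 3 to 11 in HDAC3KD, 0 to 14 in EnokKD and 1 to 12 in HDAC6KD. At stage 2 they ranged from 1 to 4, 23 to 55, 1 to 5, 3 to 14, 0 to 1 and 1 to 2 in the same order. Between stages they ranged from 42 to 64 and 54 to 88, for nuclear over total RNA from 84 to 125 in controls and 44 to 58 in NejireKD, and within nuclear RNA from 0 to 191. Both rescue pairs stayed at 0. Shares of all genes are not given for these fits.

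Replicate numbers did not pair the samples (correlations of same-numbered deviations between -0.669 and 0.478), so the replicate block is an alternative only. With the block the called members numbered 2 in EnokKD and 1 in HDAC6KD at stage 5, 2 in EnokKD at stage 2 and 5 in nuclear NejireKD, and other counts stayed within 1.5 times. The block ended the calls of Tudor-SN-a in EnokKD (-2.33, adjusted p = 0.0982) and U2:34ABa in nuclear NejireKD (-2.58, adjusted p = 0.144).

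Few counts limit the short members: those of at most 100 bases held 0.492% of member counts. Groups of 2 libraries limit Gcn5KD at stage 5, EnokKD and HDAC6KD; with 1 library left in such a group it is assumed to vary like the others.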
